A study of Mus musculus with 15 samples.

Results

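Transcripts of 9 genes that encode subunits of the ionotropic glutamate receptors of the NMDA and AMPA types were examined in the embryonic mouse brain. The genes were taken from a list of names (*Grin1*, *Grin2a*, *Grin2b*, *Grin2d*, *Grin3a*, *Gria1*, *Gria2*, *Gria3*, and *Gria4*), and all 9 were found among the 19475 genes for which values were deposited. The RNA-Seq data come from 15 C57BL/6J mouse brains collected at E16.5. There were 5 embryos (3 females and 2 males) of each of 3 genotypes, which were WT, *Tbr1*+/K228E (heterozygous in the following), and *Tbr1*K228E/K228E (homozygous). The mutants carry 1 or 2 copies of a knock-in allele of *Tbr1* that exchanges a lysine of the T-box domain for glutamate (K228E) in every cell that expresses the gene. The change lies in exon 1 of the endogenous gene, so that homozygous embryos encode no wild-type TBR1 protein, and protamine-Cre was used to take out the neomycin selection cassette. The sample labels name the tissue as brain and the series names whole brain, whereas the study's text names forebrain. The question addressed here is whether the transcripts of these receptor genes differ between the genotypes, since TBR1, a T-box transcription factor of early-born cortical neurons, is known to act at the *Grin2b* promoter.

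NMDA and AMPA receptors are tetrameric cation channels that carry most of the fast excitatory transmission of the brain. NMDA receptors contain the obligatory subunit GluN1, which binds glycine or D-serine, together with glutamate-binding GluN2 subunits, and they open only when glutamate binds while the membrane is depolarized. AMPA receptors are built from GluA1 to GluA4 and carry the rapid current, and GluA2, when edited at its RNA, makes them nearly impermeable to calcium. In the rodent forebrain, *Grin2b* and *Grin2d* are used before birth, and *Grin2a* becomes prominent after birth.

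No subunit gene differed between genotypes beyond the spread between embryos after correction over all genes, and no gene separated the embryos of 2 genotypes. *Grin2b* was at 12165 ± 1772 normalized read counts (SD, n = 5) in WT, 11722 ± 1441 (SD, n = 5) in heterozygous, and 12201 ± 1799 (SD, n = 5) in homozygous mice. In bulk tissue, fewer cells that express a gene and less RNA per cell cannot be told apart. Embryos of 1 genotype varied among themselves, and the 9 genes varied in 2 groups. *Grin1*, *Grin2a*, *Grin2d*, *Grin3a*, and *Gria4* were high in the same embryos, as were *Grin2b*, *Gria1*, and *Gria2*, and Pearson's r between the genes of both groups lay between -0.47 and -0.04.

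The values are normalized read counts, which are gene-level Salmon estimates divided by a size factor for each embryo, and they are comparable for 1 gene between embryos. Their sum per embryo lay between 30.5 and 31.8 M (M, the prefix mega), and since the scaling makes these sums nearly equal they do not give the depth. Neuron markers were high in every embryo, with a mean log2 value of 8 listed genes between 14.06 and 14.29 and single-gene means between 2253 (*Rbfox3*) and 65210 (*Tubb3*) normalized read counts. *Tbr1*, the targeted gene, was at 3537 ± 1049 normalized read counts (SD, n = 5) in WT, 6269 ± 1532 (SD, n = 5) in heterozygous, and 11366 ± 3160 (SD, n = 5) in homozygous mice. This transcript level does not by itself check for the exchanged codon. Markers of tissue around or behind the forebrain varied within genotypes. The mean log2 value of 14 Hox genes of the hindbrain and spinal cord lay between 0.00 and 7.55, with the highest values in heterozygous replicate 1 (7.55) and WT replicate 4 (6.90), and that of 7 genes of the meninges lay between 5.28 and 10.55. Several comparisons and correlations are given below with and without these 2 embryos.

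Upstream sequences were looked at for the genes that moved together, and the RefSeq promoter table held 4 of the 9 genes (*Grin1*, *Grin2d*, *Gria2*, and *Gria4*). Its window for *Grin2d* lies within annotated exons of that gene and is not shown. The 250 bases before the start of *Grin1* and *Gria4*, which covaried, and of *Gria2*, which did not vary with them, are given for build GRCm38.p6 in the direction of transcription, and all 3 windows lie on the minus strand. They occupy chr2:25319188-25319437 for *Grin1*, chr9:4796235-4796484 for *Gria4*, and chr3:80802836-80803085 for *Gria2*. Capitals mark the motif matches described after the sequences.
Grin1: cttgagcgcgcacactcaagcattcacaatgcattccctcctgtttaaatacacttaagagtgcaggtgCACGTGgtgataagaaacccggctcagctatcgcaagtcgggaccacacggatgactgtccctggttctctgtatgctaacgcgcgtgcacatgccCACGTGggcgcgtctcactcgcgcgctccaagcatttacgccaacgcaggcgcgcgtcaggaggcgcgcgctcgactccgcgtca
Gria4: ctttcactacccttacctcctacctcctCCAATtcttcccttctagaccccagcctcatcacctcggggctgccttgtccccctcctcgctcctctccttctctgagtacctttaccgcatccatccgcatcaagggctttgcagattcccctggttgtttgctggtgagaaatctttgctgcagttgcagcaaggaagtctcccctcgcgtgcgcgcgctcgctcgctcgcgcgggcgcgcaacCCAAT
Gria2: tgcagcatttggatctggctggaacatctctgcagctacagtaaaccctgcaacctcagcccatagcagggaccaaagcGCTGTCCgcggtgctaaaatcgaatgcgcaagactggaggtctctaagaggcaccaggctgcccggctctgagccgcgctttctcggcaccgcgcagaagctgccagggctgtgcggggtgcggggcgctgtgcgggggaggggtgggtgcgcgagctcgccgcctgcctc
The *Grin1* window holds 2 copies of the E-box CACGTG, whose first bases lie at -181 and -85 relative to the start, and 6.02% of 32851 promoter windows of the same length hold at least 1. The *Gria4* window holds CCAAT at -222 and -5, and 33.9% of all windows hold it on either strand. The *Gria2* window holds GCTGTCC, the reverse complement of GGACAGC, at -171. GGACAGC is the right part of RE1, the element bound by the repressor REST that keeps neuronal genes off in other tissues, and 5.28% of all windows hold it on either strand. The T-box site GGTGTGA was searched on both strands and was in none of the 4 windows of subunit genes and in 3.33% of all windows, and its shorter core GTGTGA, which it contains, was in none of the 4 and in 12.3% of all. The GC box GGGCGG was in none of the 4 and in 32.7% of all windows. A match describes the letters of the window only, and the absence of a match concerns these 250 bases only.

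To compare levels between genes, the normalized read counts were divided by the length of the merged annotated exons. Over the 15 embryos, *Gria2* was at 1553 ± 199 (SD) normalized read counts per kilobase, followed by *Gria1* at 872 ± 76.5, *Grin2b* at 484 ± 63.2, and *Gria4* at 483 ± 79.2. Lower levels per kilobase were found for *Grin1* (308 ± 45.1), *Grin2d* (280 ± 66.0), *Grin3a* (247 ± 48.1), and *Gria3* (181 ± 17.2), and *Grin2a* was lowest at 5.92 ± 1.56. The embryos of *Gria2* and *Gria1*, of *Gria1* and *Grin2b*, and of *Gria3* and *Grin2a* did not overlap, whereas the ranges of each neighboring pair from *Grin2b* down to *Gria3* overlapped. Within single embryos, *Gria4* was above *Grin1* in 15 of 15, by a factor of 1.404 to 1.724 with merged exons. Per kilobase of longest annotated transcript this order was reversed, with *Grin1* above *Gria4* in 15 of 15 (1.135 to 1.395). With merged exons, the other pairs were as follows. *Grin2b* was above *Gria4* in 9 of 15 embryos (0.707 to 1.49), and these genes are not separated beyond the spread between embryos. *Grin1* was above *Grin2d* in 13 of 15 embryos (0.896 to 1.41), *Grin2d* above *Grin3a* in 14 of 15 (0.944 to 1.29), and *Grin3a* above *Gria3* in 14 of 15 (0.858 to 1.68). The order in this middle range also depends on the length that is used. *Grin1* has 9700 bases of merged exons but a longest annotated transcript of 4276 bases, and per kilobase of longest transcript it was at 698 ± 102, above *Gria4* (560 ± 91.7) and *Grin2b* (500.0 ± 65.3). *Gria2*, *Gria1*, and *Grin2a* kept the first, second, and last place with both lengths.

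*Grin1* (ENSMUSG00000026959, chromosome 2, 25291181 to 25319187, minus strand, GRCm38) encodes GluN1, the subunit that every NMDA receptor needs. It was at 3002, 2653, 2519, 4009.5, and 3277 normalized read counts in the WT embryos, at 3465, 2214, 2639, 2942, and 2952 in the heterozygous embryos, and at 2911, 3232, 2815, 3349, and 2784 in the homozygous embryos. WT replicate 4 was the highest of all embryos and heterozygous replicate 2 the lowest, and the ranges of the 3 genotypes overlapped. The log2 fold change against WT was -0.12 in heterozygous mice (95% confidence interval -0.38 to 0.15) and -0.02 in homozygous mice (-0.28 to 0.25). Without WT replicate 4 these values were -0.02 and 0.08. The noncoding gene *Grin1os* overlaps exons of *Grin1* on the opposite strand. The library kit does not mark strand, so that reads from both cannot be told apart where they overlap. The same holds for the antisense genes at *Grin2b* and *Grin2d* (*Gm14329*, *Gm26653*, and *Gm45441*).

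*Grin2b* (ENSMUSG00000030209, chromosome 6, 135713233 to 136173511, minus strand) encodes GluN2B, the main GluN2 subunit of the embryonic forebrain. It was at 10240.3, 10806, 14532, 11923, and 13325.5 normalized read counts in the WT embryos, at 10045, 13049.6, 11811, 13211, and 10495 in the heterozygous embryos, and at 10232, 11057, 14367, 13818, and 11531 in the homozygous embryos. High and low embryos were found in each genotype, with WT replicate 3 and homozygous replicate 3 the highest and heterozygous replicate 1 the lowest, and the genotypes overlapped over nearly their whole range. The log2 fold change was 0.00 in homozygous against WT (95% confidence interval -0.24 to 0.25), -0.05 in heterozygous against WT (-0.29 to 0.19), and 0.05 between both mutants (-0.19 to 0.30). Expressed as a ratio, the interval for homozygous against WT runs from 0.847 to 1.19. It gives the ratios compatible with these 5 embryos per genotype before correction over all genes, and it is not a limit of detection. The Benjamini–Hochberg adjusted p-values of limma were 1 and 0.999 against WT and 0.996 between the mutants.

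*Grin2a* (ENSMUSG00000059003, chromosome 16, 9567898 to 9995560, minus strand) encodes GluN2A, which gives receptors with faster kinetics after birth. Its normalized read counts were 103, 105, 94.4, 185, and 129 in the WT embryos, 102, 64.2, 90.2, 97.5, and 94.0 in the heterozygous embryos, and 89.8, 135, 92.5, 121, and 88.5 in the homozygous embryos. WT replicate 4 stood highest, heterozygous replicate 2 lowest, and 4 of the 5 WT embryos lay above every heterozygous embryo, WT replicate 1 by a small margin, whereas WT replicate 3 lay within their range. Over the 15 embryos, *Grin2a* had the smallest p of the 9 genes in heterozygous against WT, with a log2 fold change of -0.43 (95% confidence interval -0.84 to -0.02, p = 0.0414 before correction and 0.999 after Benjamini–Hochberg adjustment in limma, two-sided exact permutation p = 0.0397). Without WT replicate 4, the log2 fold change was -0.27. In homozygous against WT it was -0.20 (-0.61 to 0.21), and without WT replicate 4 it was -0.05.

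*Grin2d* (ENSMUSG00000002771, chromosome 7, 45831883 to 45878378, minus strand) encodes GluN2D, an early subunit of slow receptors, found in interneurons and in the brainstem. It was at 1955, 1503, 1380.5, 2598, and 2509 normalized read counts in the WT embryos, at 2209, 1081, 1676, 1759, and 1780.4 in the heterozygous embryos, and at 1734, 2393, 1481, 2196, and 1677 in the homozygous embryos. The lowest and the highest embryo differed by more than for most of the other subunits, and the coefficient of variation over the 15 embryos was 23.6%, compared with 26.4% for *Grin2a* and 8.78% for *Gria1*. The log2 fold changes had intervals that were correspondingly wide, from -0.65 to 0.22 in heterozygous and from -0.48 to 0.39 in homozygous against WT, around -0.22 and -0.05. The heterozygous value was -0.06 without heterozygous replicate 2 and -0.34 without WT replicate 3, and the homozygous value was 0.06 without WT replicate 4.

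*Grin3a* (ENSMUSG00000039579, chromosome 4, 49661611 to 49845744, minus strand) encodes GluN3A, a glycine-binding subunit that lowers the calcium permeability of the receptor in the young brain. Its normalized read counts were 2804, 2486.5, 2472, 4217.5, and 3673 in the WT embryos, 3355, 1821.5, 2702, 2943, and 2966 in the heterozygous embryos, and 3077, 3446, 2891, 3736, and 2923 in the homozygous embryos. WT replicate 4 was again the highest and heterozygous replicate 2 the lowest, with overlap between all genotypes. The log2 fold change of *Grin3a* between homozygous and heterozygous mice was 0.24 (95% confidence interval -0.11 to 0.60, adjusted p = 0.996, limma, Benjamini–Hochberg), and 0.10 without heterozygous replicate 2. Relative to WT mice it was -0.18 (-0.53 to 0.18) in heterozygous and 0.07 (-0.29 to 0.42) in homozygous mice. The heterozygous value was -0.04 without heterozygous replicate 2, and the homozygous value was 0.18 without WT replicate 4.

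*Gria1* (ENSMUSG00000020524, chromosome 11, 57011387 to 57330244, plus strand) encodes GluA1, the subunit whose phosphorylation and insertion accompany synaptic strengthening. It was at 4621, 4855, 5868, 5130.3, and 6081 normalized read counts in the WT embryos, at 5187, 5793, 4949.9, 5257, and 5085 in the heterozygous embryos, and at 4765, 4820.5, 5948, 5430.3, and 5213 in the homozygous embryos. The embryos of the 3 genotypes lay in the same range. The SD within genotypes was 0.13 on the log2 scale, compared with 0.12 for *Gria3* and 0.20 to 0.36 for the other subunits. Its log2 fold changes against WT were -0.01 (95% confidence interval -0.18 to 0.16) in heterozygous and -0.02 (-0.18 to 0.15) in homozygous mice.

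*Gria2* (ENSMUSG00000033981, chromosome 3, 80681450 to 80802835, minus strand) encodes GluA2. Its normalized read counts were 20074, 23356, 28619, 21448, and 26583 in the WT embryos, 20341.5, 27632, 23556, 26844, and 23286 in the heterozygous embryos, and 19136, 22862, 28775, 24880.1, and 24772 in the homozygous embryos. Replicate 1 was the lowest embryo in each genotype, the highest were replicate 3 in WT and homozygous mice and replicate 2 in heterozygous mice, and the ranges overlapped. Replicate numbers mark different animals, and the shared number was not used to pair embryos. The log2 fold changes against WT were 0.02 (95% confidence interval -0.22 to 0.27) in heterozygous and 0.00 (-0.24 to 0.25) in homozygous mice.

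*Gria3* (ENSMUSG00000001986, chromosome X, 41400854 to 41678601, plus strand) encodes GluA3, which pairs mostly with GluA2. It was at 1720.2, 1719.6, 1822, 2177.5, and 2056 normalized read counts in the WT embryos, at 1761, 1705, 1684, 1887, and 1652 in the heterozygous embryos, and at 1483, 1878, 1710.2, 1785, and 1666 in the homozygous embryos. The 2 highest embryos were WT replicates 4 and 5, the lowest was homozygous replicate 1, and the remaining WT embryos lay within the range of the mutants. Over the 15 embryos, *Gria3* had the smallest p of the 9 genes in homozygous against WT, with a log2 fold change of -0.15 (95% confidence interval -0.31 to 0.00, p = 0.0558 before and 1 after Benjamini–Hochberg adjustment in limma, two-sided exact permutation p = 0.135). The value in heterozygous against WT, which shares the WT embryos, was -0.12 (-0.28 to 0.03), and -0.07 without WT replicate 4. Leaving out 1 embryo at a time moved the homozygous value between -0.19 and -0.10.

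*Gria4* (ENSMUSG00000025892, chromosome 9, 4417896 to 4796234, minus strand) encodes GluA4, a subunit of fast AMPA receptors in early neurons, interneurons, and the brainstem. Its normalized read counts were 2739, 2646, 2519.7, 4282, and 3308 in the WT embryos, 3237, 2221, 2753, 3075, and 2951 in the heterozygous embryos, and 3045, 3622, 2925, 3475, and 2914 in the homozygous embryos. WT replicate 4 lay above all other embryos and heterozygous replicate 2 below them, as for *Grin1*, *Grin2a*, and *Grin3a*, and the genotypes overlapped. The log2 fold changes against WT were -0.11 (95% confidence interval -0.39 to 0.18) in heterozygous and 0.07 (-0.22 to 0.35) in homozygous mice, and between the mutants 0.17 (-0.11 to 0.46). Without WT replicate 4 the values against WT were 0.02 and 0.19, and without heterozygous replicate 2 the value between the mutants was 0.09.

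**Figure D1:**
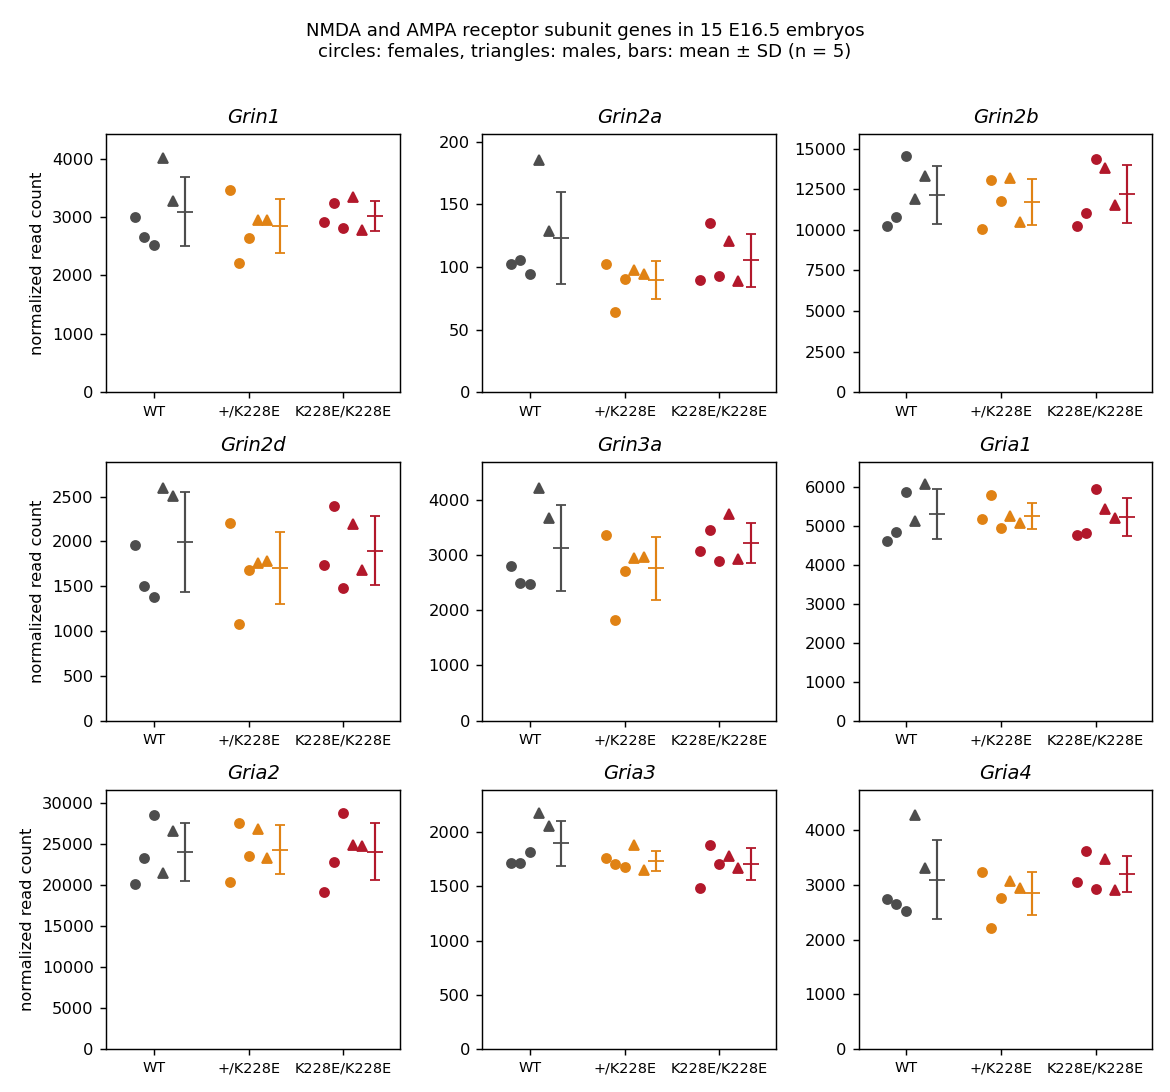
Normalized read count (vertical axis, from 0) of the 9 subunit genes in each embryo, by genotype (horizontal axis), with circles for females, triangles for males, and bars for mean ± SD (n = 5). In each panel the genotypes overlap, and WT replicate 4 (the higher WT triangle in most panels) is the highest embryo for *Grin1* (4009.5), *Grin2a* (185), *Grin2d* (2598), *Grin3a* (4217.5), *Gria3* (2177.5), and *Gria4* (4282).

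The counts over the 9 genes were set beside those over the 16507 genes tested. In heterozygous against WT, 0 of 9 genes passed an adjusted p of 0.05 in limma (0% of all genes tested), 1 of 9 had an unadjusted p under 0.05 (1.79% of all genes), and 0 of 9 had embryos that did not overlap (0.260% of all genes). In homozygous against WT, 0 of 9 passed the adjusted threshold (0.127% of all genes), 0 of 9 had an unadjusted p under 0.05 (3.23%), and 0 of 9 separated the embryos (0.594%). Between the mutants these counts were again 0 of 9, with 0.0788%, 3.30%, and 0.878% of all genes. The count of 1 is that of *Grin2a*.

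Relative to WT mice, 1 of 9 genes lay above 0 in heterozygous mice (*Gria2*), with a median log2 fold change of -0.12 (48.8% of all genes above 0, median -0.00), and 4 of 9 in homozygous mice, with a median of -0.02 (all genes 48.7% and -0.00). Between the mutants 6 of 9 lay above 0, with a median of 0.10 (all genes 50.2% and 0.00). Without the 2 embryos with the highest hindbrain marker values, 1 of 9 lay above 0 in heterozygous mice (median -0.08), 4 of 9 in homozygous mice (median -0.0003), and 6 of 9 between the mutants (median 0.17). The values then ran from -0.32 (*Grin2a*) to 0.05 (*Gria2*) in heterozygous against WT, and from -0.10 (*Gria3*) to 0.19 (*Gria4*) in homozygous against WT. The embryos left out are WT replicate 4 and heterozygous replicate 1. In homozygous against WT the fold changes are therefore the same as without WT replicate 4 alone. Between the mutants they are the same as without heterozygous replicate 1 alone. WT replicate 1, with a hindbrain mean of 5.19, stayed in. The genes are not independent of one another, as 5 of them moved together between embryos, and both comparisons with WT mice share the same 5 WT embryos.

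**Figure D2:**
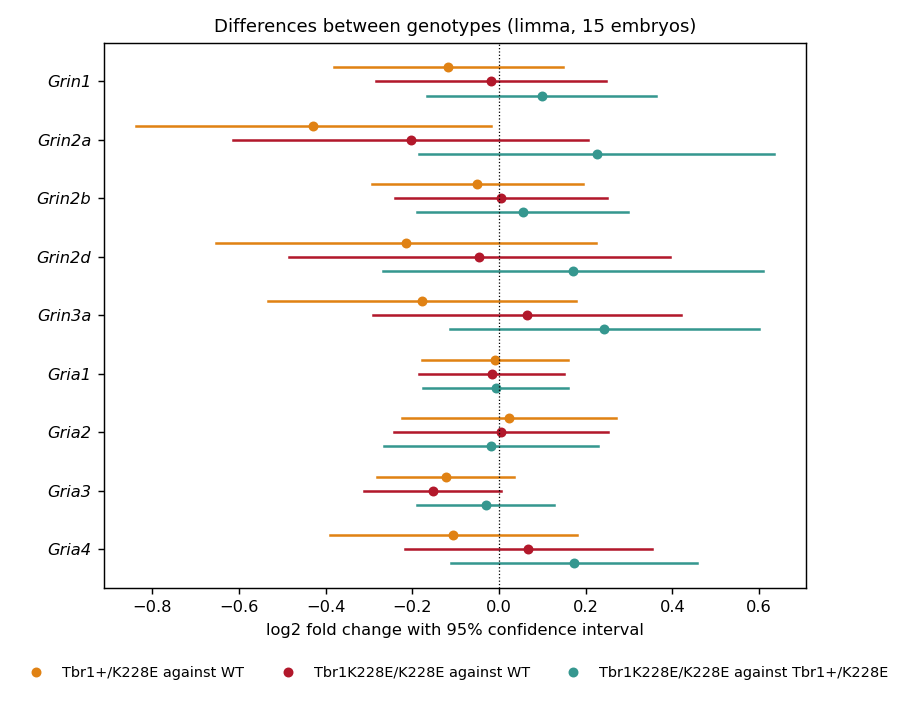
Log2 fold change of each subunit gene (points) with its 95% confidence interval (lines) in the 3 genotype comparisons, from a limma fit of 15 embryos. The interval includes 0 in 26 of 27 cases, the exception being *Grin2a* in heterozygous against WT (-0.84 to -0.02), and the intervals of *Gria1* and *Gria3* are the narrowest.

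The NMDA subunits outside the list were at low values. *Grin2c* (GluN2C, mainly of the adult cerebellum) was at 94.7 ± 16.8 normalized read counts (SD, n = 5) in WT, 88.1 ± 9.70 (SD, n = 5) in heterozygous, and 80.0 ± 12.0 (SD, n = 5) in homozygous mice, with a log2 fold change of -0.24 (95% confidence interval -0.54 to 0.07) in the latter against WT. *Grin3b* (GluN3B, of motor neurons) was at 38.6 ± 16.53, 28.0 ± 6.96, and 29.9 ± 5.62 normalized read counts (SD, n = 5). Its exons overlap those of *Tmem259* on the opposite strand, which was at 3189 normalized read counts on average, so that the *Grin3b* values are uncertain.

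How the 9 genes varied together was described by Pearson's r of log2(normalized read count + 1) over the 15 embryos, which were scaled together and belong to 3 genotypes. The grouping was made after the values were seen, and it is a description without a test. Among *Grin1*, *Grin2a*, *Grin2d*, *Grin3a*, and *Gria4*, the 10 pairwise values of r lay between 0.86 and 0.96, with a median of 0.92. Among *Grin2b*, *Gria1*, and *Gria2*, the 3 values lay between 0.83 and 0.89. Between the groups all 15 values were negative, from -0.47 to -0.04, and *Gria3* correlated with the first group at 0.51 to 0.75 and with the second at 0.23 to 0.37. The first group thus holds the obligatory GluN1 with 3 of the 4 other listed NMDA subunits and 1 AMPA subunit, and the second holds GluN2B with GluA1 and GluA2.

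The same division was found in the deviations of each embryo from its genotype mean, where r lay between 0.89 and 0.98 in the first group, between 0.83 and 0.90 in the second, and between -0.47 and -0.13 across them. Without the 2 embryos with the highest hindbrain marker values, the ranges were 0.83 to 0.97, 0.88 to 0.90, and -0.35 to -0.04 in the remaining 13 embryos. *Gria3* then correlated with the second group at 0.47 to 0.53 and with the first at 0.32 to 0.58. High values of r were common in these data, since 1% of all tested genes correlated with *Grin1* above 0.93 and with *Grin2b* above 0.79. The median r over all tested genes was -0.03 with *Grin1* and -0.01 with *Grin2b*. Negative values like those between the groups were common as well. With *Grin2b*, 47.1% of all tested genes had a lower r than *Grin2a*, and with *Gria2*, 14.8% had a lower r than *Grin1*.

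**Figure D3:**
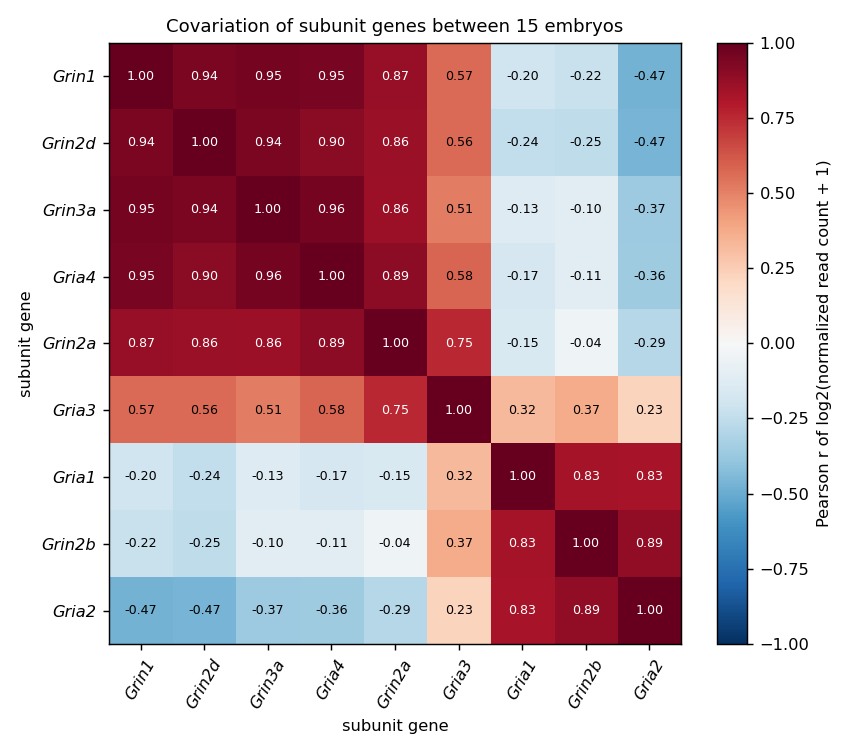
Pearson r of log2(normalized read count + 1) between subunit genes (both axes) over 15 embryos, colored from -1 (blue) to 1 (red). The block of *Grin1*, *Grin2d*, *Grin3a*, *Gria4*, and *Grin2a* holds values from 0.86 upward, the block of *Gria1*, *Grin2b*, and *Gria2* holds values from 0.83 upward, and all values between these blocks are below 0.

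Outside the list, the genes with the highest r with *Grin2b* over the 15 embryos were *Fgd4* (0.95), *9330159F19Rik* (0.92), *Taok1* (0.92), *Trim2* (0.91), and *Lrrc7* (0.91). With *Gria2* they were *Atrx* (0.96), *Kmt2c* (0.94), and again *Taok1* (0.94). With *Grin1* they were *Tspyl4* (0.99), *Vsnl1* (0.98), and *Zwint* (0.98).

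Cell type markers moved with the subunit genes, and their part in the covariation was not tested. Over the 15 embryos, the mean log2 value of 8 markers of neural progenitors and dividing cells, such as *Sox2*, *Pax6*, and *Mki67*, correlated with the 5 genes of the first group at r between -0.89 and -0.81, and with *Grin2b*, *Gria1*, and *Gria2* at -0.03, 0.03, and 0.14. The mean of 6 markers of cortical excitatory neurons correlated with the first group at -0.83 to -0.73 and with *Gria2* at 0.67, and the mean of 6 markers of GABAergic neurons at -0.86 to -0.74 with the first group. The mean of 8 general neuron markers correlated with the first group at 0.53 to 0.76. Without the 2 embryos with the highest hindbrain marker values, the first group was at -0.87 to -0.78 with progenitors, -0.79 to -0.61 with cortical excitatory neurons, -0.85 to -0.71 with GABAergic neurons, and 0.38 to 0.65 with general neuron markers.

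Markers of the hindbrain, of astrocytes, and of oligodendrocytes had correlations of opposite sign with the 2 groups, whereas those of microglia did not. The hindbrain and spinal cord mean correlated at 0.43 to 0.63 with the first group, and at -0.77 with *Gria2*, -0.60 with *Grin2b*, and -0.51 with *Gria1*. Without the 2 embryos with its highest values, the first group was at 0.14 to 0.34, and *Gria2*, *Grin2b*, and *Gria1* were at -0.78, -0.64, and -0.73. The mean of 6 astrocyte markers correlated with the first group at 0.54 to 0.68. It was at -0.52 with *Gria2*, -0.25 with *Grin2b*, and -0.16 with *Gria1*. The mean of 5 oligodendrocyte markers was at 0.54 to 0.69 with the first group and at -0.71, -0.51, and -0.38 with these 3 genes. The mean of 5 microglia markers was negative for both groups, at -0.29 to -0.16 and -0.38 to -0.21. Without the 2 embryos with the highest hindbrain marker values, the first group was at 0.18 to 0.29 with astrocyte and 0.15 to 0.44 with oligodendrocyte markers. *Gria2*, *Grin2b*, and *Gria1* were then at -0.38, -0.16, and -0.17 with astrocyte and -0.71, -0.62, and -0.50 with oligodendrocyte markers. *Gria3*, outside both groups, was at 0.20 with hindbrain, 0.38 with astrocyte, and 0.31 with oligodendrocyte markers over the 15 embryos. Its values without these 2 embryos were -0.24, -0.16, and -0.22. The mean of 7 markers of the meninges correlated at -0.72 with *Grin2b*, -0.56 with *Gria2*, and -0.55 with *Gria1*, and at -0.15 to 0.06 with the first group. These 3 genes were also negative with endothelial (-0.66, -0.48, and -0.45), choroid plexus (-0.67, -0.42, and -0.40), and blood markers (-0.60, -0.35, and -0.36). Blood markers were negative with the first group as well (-0.55 to -0.34). All 14 hindbrain and spinal cord markers and all 7 markers of the meninges reached the mean of 5 needed for testing. The lowest means were those of *Hoxb8* (5.222) and *Foxd1* (69.05), and in heterozygous replicate 2 the hindbrain mean was 0.00. The progenitor mean lay between 11.00 and 11.61 in WT, 11.29 and 11.59 in heterozygous, and 10.99 and 11.51 in homozygous mice. The hindbrain mean lay between 0.32 and 6.90, 0.00 and 7.55, and 0.26 and 3.60 in the same order. Averaged by genotype it was highest in WT, at 3.34 ± 2.84 (SD, n = 5). It was 1.74 ± 3.25 in heterozygous and 1.81 ± 1.51 in homozygous mice (SD, n = 5). Of the 14 markers, 2 lay above 0 in heterozygous and 1 in homozygous against WT (48.8% and 48.7% of all genes). The part of this difference in the fold changes of the subunit genes was not tested.

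**Figure D4:**
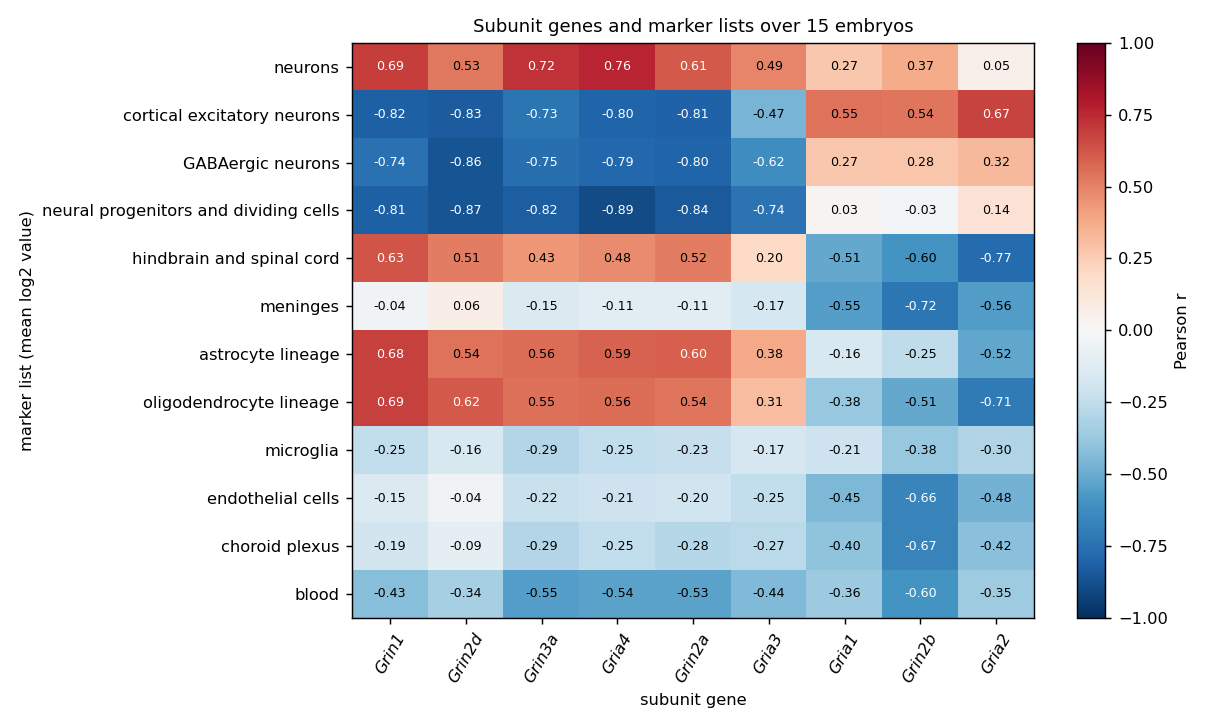
Pearson r over 15 embryos between each subunit gene (horizontal axis) and the mean log2 value of each marker list (vertical axis), colored from -1 (blue) to 1 (red). The 5 genes on the left are negative for progenitors (-0.89 to -0.81) and cortical excitatory neurons (-0.83 to -0.73) and positive for hindbrain (0.43 to 0.63), and the 3 on the right are negative for hindbrain (-0.77 to -0.51) and meninges (-0.72 to -0.55).

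The makeup of each receptor family was expressed as the share of each subunit in the sum of its family per kilobase of merged exons. Of the sum of the 5 NMDA genes, *Grin2b* made up 36.3% ± 6.52 (SD, n = 5) in WT, 38.2% ± 7.36 (SD, n = 5) in heterozygous, and 36.3% ± 4.62 (SD, n = 5) in homozygous mice, and the highest share in any embryo was 49.2%. *Grin1* made up 23.2% ± 1.58 over the 15 embryos, *Grin2d* 20.9% ± 3.04, *Grin3a* 18.5% ± 1.81, and *Grin2a* 0.442% ± 0.0709. Of the sum of the 4 AMPA genes, *Gria2* made up 49.6% ± 3.80 (SD, n = 5) in WT, 51.0% ± 3.29 (SD, n = 5) in heterozygous, and 49.9% ± 2.69 (SD, n = 5) in homozygous mice. *Gria1* made up 28.2% ± 1.09 over all embryos, *Gria4* 15.8% ± 2.79, and *Gria3* 5.87% ± 0.524. Per kilobase of longest transcript, *Grin1* made up 35.7% and *Grin2b* 26.0% of the NMDA sum over all embryos, so that their order depends on the length, whereas *Gria2* made up 55.6% of the AMPA sum. With merged exons, these shares differed between genotypes by less than 1 SD of the embryos of the WT group for *Grin2b* and *Gria2*.

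*Grin2b* exceeded *Grin2a* per kilobase by a factor of 75.7 ± 23.1 (SD, n = 5) in WT, 98.1 ± 29.3 (SD, n = 5) in heterozygous, and 86.1 ± 19.3 (SD, n = 5) in homozygous mice, with single embryos between 46.5 and 147. The ratio of *Gria2* to the other 3 AMPA genes together was 0.994 ± 0.148, 1.05 ± 0.132, and 0.999 ± 0.108 (SD, n = 5) in the same order. The AMPA sum was 2.30 ± 0.317, 2.47 ± 0.354, and 2.29 ± 0.233 times the NMDA sum (SD, n = 5). Each of these ratios overlapped between the genotypes.

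**Figure D5:**
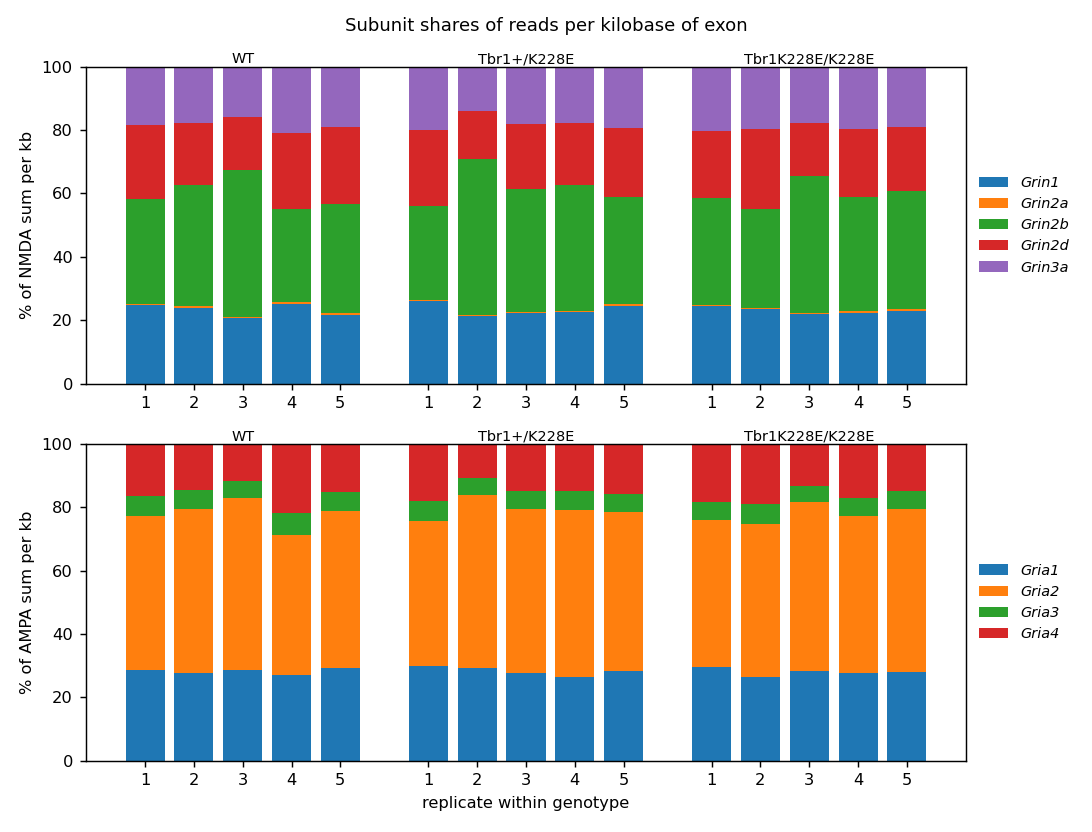
Share of each subunit gene in the NMDA sum (upper panel) and AMPA sum (lower panel) of normalized read counts per kilobase of merged exons, in percent (vertical axis), for each embryo (horizontal axis) of the 3 genotypes. *Grin2b* takes between 29.3% and 49.2% of the NMDA sum and *Gria2* between 44.1% and 54.5% of the AMPA sum, and *Grin2a* is a thin line in each bar.

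The 9 genes were also compared between the 6 male and the 9 female embryos, with genotype in the fit. All 9 were higher in males, as were 50.4% of all genes tested, and 0 of 9 passed the adjusted threshold in limma (0.0788% of all genes), whereas 2 of 9 had an unadjusted p under 0.05 (11.0% of all genes). *Grin3a* was at 3410 normalized read counts in males and 2784 in females, with a log2 difference of 0.30 (95% confidence interval 0.04 to 0.56, adjusted p = 0.414, limma, Benjamini–Hochberg). *Gria4* was at 3334 and 2856, with a difference of 0.22 (0.01 to 0.43, adjusted p = 0.438, limma, Benjamini–Hochberg). WT replicate 4, the highest embryo for both genes, is male, and without it all 9 were still above 0, 0 of 9 had an unadjusted p under 0.05 (6.32% of all genes), and *Grin3a* and *Gria4* differed by 0.23 (-0.03 to 0.49) and 0.14 (-0.05 to 0.32). Without the 2 embryos with the highest hindbrain marker values, 3 of 9 had an unadjusted p under 0.05 (7.66% of all genes), namely *Grin1*, *Grin3a*, and *Gria4*, and 0 of 9 passed the adjusted threshold in limma. The X-linked *Gria3* differed by 0.12 (-0.0037 to 0.24), and by 0.08 (-0.04 to 0.21) without WT replicate 4. The progenitor marker mean was 11.24 in males and 11.45 in females, and its part in these differences was not tested.

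The other genes of glutamatergic signaling were taken as lists, and 0 genes of any list passed the adjusted threshold in any of the 3 comparisons in limma. Among 7 kainate and delta receptor subunits, 0 had an unadjusted p under 0.05 in homozygous against WT, with a median log2 fold change of 0.03. *Grik2* was at 0.15 (95% confidence interval -0.03 to 0.33) and *Grik3* at -0.16 (-0.34 to 0.03). Of 19 auxiliary subunits and assembly factors of AMPA and kainate receptors, 2 had an unadjusted p under 0.05 (3.23% of all genes tested), both below 0, and the list median was -0.04. These were *Neto2*, an auxiliary subunit of kainate receptors, at -0.17 (-0.31 to -0.04), and *Shisa9*, which modulates AMPA receptor desensitization, at -0.27 (-0.51 to -0.03), and both had a Benjamini–Hochberg adjusted p of 1 in limma.

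In homozygous against WT, genes for proteins that hold, modify, or supply the receptors had list medians near 0. Of 26 postsynaptic scaffold and trafficking genes, 1 had an unadjusted p under 0.05 in homozygous against WT, a share close to the 3.23% of all genes tested. This was *Grip1*, which binds GluA2 and GluA3, at -0.10 (95% confidence interval -0.19 to -0.0048), and the median was 0.03. *Lin7b*, a PDZ scaffold protein, was at -0.22 (-0.49 to 0.05). Among 18 receptor kinases, phosphatases, and RNA editing enzymes, the median was 0.03, and *Adarb1*, which edits the *Gria2* transcript, was at -0.14 (-0.31 to 0.04). Among 7 metabotropic glutamate receptors 0 had an unadjusted p under 0.05, with a median of 0.07, and among 12 genes of glutamate, glycine, and D-serine transport and supply 0 did so, with a median of -0.06. The intervals of the genes named from these lists included 0, and these genes were the metabotropic receptor *Grm2* (0.15, -0.07 to 0.36) and the glutamate transporters *Slc1a3* (-0.13, -0.34 to 0.07) and *Slc1a1* (0.10, -0.06 to 0.26). In heterozygous against WT, 1 of 7 metabotropic receptors (median -0.15) and 1 of 7 kainate and delta subunits (-0.12) lay above 0 (48.8% of all genes). Medians there were -0.03 for auxiliary subunits (5 of 19 above 0), 0.0006 for scaffold genes (13 of 26), -0.0055 for kinases, phosphatases, and editing enzymes (9 of 18), and -0.06 for transport and supply (3 of 12). Between the mutants, 7 of 7 metabotropic receptors (0.14) and 6 of 7 kainate and delta subunits (0.06) lay above 0 (50.2% of all genes). The counts were 10 of 19 for auxiliary subunits, 15 of 26 for scaffold genes, and 8 of 12 for transport and supply. For kinases, phosphatases, and editing enzymes the count was 12 of 18.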

How the data were processed

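Total RNA of 15 brains was sequenced after preparation with a TruSeq kit that does not mark strand. Per the labels and the study's methods, the authors estimated transcript abundance with Salmon 0.11.2 on GRCm38 with GC bias correction, imported it to genes in R 3.5.3 with tximport, and divided it by DESeq2 1.22.2 size factors. What the authors deposited is thus a scaled signal for each gene in each embryo, and since these are not whole reads no count model was used. The depth per embryo was not used here.

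Genes were matched by Ensembl identifier to GENCODE M21 (19452 of 19475), and upstream sequences are from RefSeq. Log2(normalized read count + 1) was fitted with limma 3.58.1 in R 4.3.3 over all 15 embryos and the 16507 genes whose mean reached 5, with genotype as the factor, followed by Benjamini–Hochberg adjustment over all tested genes (threshold 0.05). Fold changes on this scale understate those of genes with low values. Values of single genes were also compared with two-sided exact permutation tests (scipy 1.17.1), whose smallest p for 5 against 5 embryos is 0.00794. P-values set the difference between group means against the spread between these embryos. The fit was tested on simulated data.

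The genes named are the 9 subunits, *Tbr1*, *Grin2c*, *Grin3b*, the 2 genes per list with the smallest p in homozygous against WT (some are not reported here), and the genes with the highest r with *Grin2b* (5), *Grin1* (3), and *Gria2* (3). The members and lists were chosen with earlier results of these data known. Alternatives were other pseudocounts (0.1 and 10), filters (none and a mean of at least 50), and scalings, sex or marker scores as covariates, a replicate block, robust eBayes, the 2 compared genotypes alone, and leaving out embryos. No 2 columns held the same values, and embryos of 1 genotype correlated on the log2 scale at r between 0.977 and 0.987.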

Additional observations from a re-analysis of the deposited data

Results flagged for a closer look

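The mean log2 value of the 14 hindbrain and spinal cord markers was 7.55 in heterozygous replicate 1, and the gap to the next embryo of this genotype was 0.938 of the range of the 5 embryos, above Dixon's critical value of 0.71. Of 63 groups of 5 embryos looked at, which included each subunit gene in each genotype, this was the only one past that value, and chance alone passes it in about 1 of 20 groups. In this embryo *Gria2* was at 20341.5 and *Grin2b* at 10045 normalized read counts, the lowest of its genotype for both genes.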

How the results depend on the processing

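No subunit gene passed the adjusted threshold in any of the settings, and the lowest adjusted p of any subunit gene was 0.251 (*Gria3*, limma with the progenitor marker mean as a covariate). Of 351 fold changes over 13 settings that leave out no single embryo in turn, 337 kept their sign. The homozygous values against WT that turned were those of *Grin2b* (-0.0003 with upper quartile rescaling, -0.0037 with quantile normalization), *Gria2* (-0.0002 with upper quartile rescaling), and, with the hindbrain marker mean as a covariate, *Grin1* (0.060), *Grin2b* (-0.071), *Grin2d* (0.058), and *Gria2* (-0.089, and -0.075 in heterozygous against WT). Without the 2 embryos with the highest hindbrain marker values they were 0.080, -0.0003, 0.063, and -0.034 in the same order of genes, and *Grin2a* in heterozygous against WT was -0.32 (main value -0.43). With the progenitor mean as a covariate, *Grin1* and *Grin2d* were at -0.0070 and -0.018 between the mutants. The settings without these 2 embryos, with the progenitor mean, and without WT replicate 4 in the comparison of sexes were chosen after seeing the data. The cause of these changes was not tested.

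Leaving out 1 embryo at a time turned the sign in 44 of 270 values, all of fold changes whose main value lay between -0.11 and 0.07. In heterozygous against WT the ranges that crossed 0 were -0.109 to 0.017 for *Grin2b*, -0.057 to 0.042 for *Gria1*, -0.039 to 0.089 for *Gria2*, and -0.173 to 0.019 for *Gria4*. In homozygous against WT they were -0.088 to 0.080 for *Grin1*, -0.058 to 0.071 for *Grin2b*, -0.165 to 0.063 for *Grin2d*, -0.011 to 0.181 for *Grin3a*, -0.066 to 0.034 for *Gria1*, -0.063 to 0.084 for *Gria2*, and -0.0001 to 0.191 for *Gria4*. Between the mutants they were -0.0079 to 0.115 for *Grin2b*, -0.055 to 0.028 for *Gria1*, -0.086 to 0.061 for *Gria2*, and -0.067 to 0.018 for *Gria3*.

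Over all genes, 21 passed in homozygous against WT (12 with the 2 genotypes alone, 12 to 21 leaving out 1 embryo, lowest without WT replicate 1 and without homozygous replicate 3, and 13 or 14 without WT replicate 2 and homozygous replicates 1 and 4) and 13 between the mutants (6 to 8 leaving out any 1 embryo of either genotype). Same-numbered embryos are different animals, and their deviations correlated at r between -0.232 and 0.506, so that the numbers were not taken to pair them. The replicate block gave 2 genes between the mutants and 16 in homozygous against WT, and 0 subunit genes. Shares per kilobase of longest transcript were 35.7% for *Grin1*, 0.367% for *Grin2a*, 26.0% for *Grin2b*, 17.4% for *Grin2d*, 20.6% for *Grin3a*, 22.7% for *Gria1*, 55.6% for *Gria2*, and 8.21% for *Gria3*. Precision is limited by the spread between embryos and by the 5 embryos per genotype.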
